A study of Mus musculus with 4 samples.

Results

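The genes of the interleukin 1 and interleukin 18 receptors lie side by side on mouse chromosome 1. They are Il1r2, Il1r1, Il1rl2, Il1rl1, Il18r1 and Il18rap, chosen by name as the interleukin 1 receptor family genes of that cluster, and they are 6 of the 4167 genes analysed. RNA was measured in long-term haematopoietic stem cells (LT-HSCs), the bone marrow cells that renew themselves and maintain all blood lineages. The cells were sorted by flow cytometry from tibia and femur marrow of wild-type mice (WT, 2 libraries) and of mice labelled ATF4 KO (2 libraries), which the series describes as a conditional knockout of Atf4. ATF4 is a transcription factor that cells use to respond to stress and to amino acid shortage, and the study asked what its loss does to adult stem cells. The labels used here name neither the Cre driver of the knockout nor the age or sex of the mice, nor whether the 2 libraries of a genotype came from separate animals, so p-values measure only the spread between these libraries. Polyadenylated RNA was extracted with TRIzol and prepared with a protocol adapted from Smart-seq2, which builds libraries from the RNA of few cells.

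Interleukin 1 family cytokines are alarm signals of infection and tissue injury. Each signalling receptor pairs a chain that binds the cytokine with an accessory chain, and the intracellular TIR domains of the pair recruit the adaptor MyD88 and lead to activation of NF-kB and MAP kinases. In bone marrow, interleukin 1 is known to push haematopoietic stem cells towards myeloid differentiation. Il1r1 encodes the signalling receptor of interleukin 1 alpha and beta, and Il1r2 encodes a decoy that binds interleukin 1 without a TIR domain. Il1rl2 encodes the binding chain of the interleukin 36 receptor, Il1rl1 encodes ST2, the receptor of interleukin 33, and Il18r1 and Il18rap encode the binding and accessory chains of the interleukin 18 receptor.

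The 4 libraries differed greatly in depth, and this bears on every comparison of genotypes that follows. The deposited values are log2 values with the form of a regularized logarithm, which draws the value of a library with few reads towards the other libraries of the same gene. Whole reads that give all 4 values of a gene could be found for 1862 of 1928 genes with values (96.6%), among them all 6 receptor genes. Over these genes WT 1 held 796451 reads, WT 2 held 644942, ATF4 KO 1 held 16599 and ATF4 KO 2 held 15787. In the ATF4 KO libraries 10 genes took 80.2% and 70.8% of the reads, against 11.1% and 12.1% in WT. A read was found in 287 and 303 genes of the ATF4 KO libraries and in 1677 and 1614 genes of the WT libraries. The size factors within the values, which scale the libraries to each other, put the ATF4 KO depth at 0.165% and 0.171% of that of WT 1, whereas the summed ATF4 KO reads came to 2.25% of the summed WT reads. Every ATF4 KO level therefore depends on the scaling, by 3.58 on the log2 scale between these choices, and all results below are given with that limit. Atf4 itself was not analysed here, so the genotype could not be checked on the targeted gene. In bulk RNA, fewer cells of a type and less RNA per cell cannot be told apart.

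The cluster spans chr1:40074079-40551705 on GRCm38, a stretch of 477.6 kb, and all 6 genes are read from the plus strand. Il1r2 (ENSMUSG00000026073.13) comes first, at chr1:40074079-40125231, with 4 annotated transcripts whose exons cover 1908 bases. Il1r1 (ENSMUSG00000026072.12) follows at chr1:40225080-40317257, with 3 transcripts and 6363 exonic bases. Il1rl2 (ENSMUSG00000070942.8) lies at chr1:40324610-40367562, with 4 transcripts and 6812 exonic bases. Il1rl1 (ENSMUSG00000026069.15) lies at chr1:40429570-40465415, with 5 transcripts and 6894 exonic bases. Only 136 bases separate its end from the start of Il18r1 (ENSMUSG00000026070.15), at chr1:40465552-40500854, with 6 transcripts and 4817 exonic bases. Il18rap (ENSMUSG00000026068.11) closes the cluster at chr1:40515362-40551705, with 4 transcripts and 6752 exonic bases. The antisense gene Gm16894 lies within Il1r2 but shares no exon with it, and the other genes inside the receptor genes share no exon with them either.

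Since ATF4 was the gene deleted, the 250 bases before the RefSeq transcription starts of the receptor genes (GRCm38.p6, 10 windows for 6 genes) were searched on both strands for motifs of its family. ATF4 pairs with C/EBP proteins on the composite motif TGATGCAA. No window held it, nor the looser TGATGNAA, nor the palindrome TGACGTCA of CREB and ATF proteins, while 0.791%, 3.45% and 1.55% of all 32851 windows held them. The shorter TGACG, which is contained in TGACGTCA, was in 2 of the 10 windows and in 17.8% of all windows. These are the windows of Il1r1, at chr1:40224830-40225079, and of a start of Il1rl1, at chr1:40439379-40439628. Both are shown on the plus strand, 5′ to 3′, because they are the receptor windows that held any of the motifs. Capitals mark the match, which in Il1r1 reads as the reverse complement.
Il1r1: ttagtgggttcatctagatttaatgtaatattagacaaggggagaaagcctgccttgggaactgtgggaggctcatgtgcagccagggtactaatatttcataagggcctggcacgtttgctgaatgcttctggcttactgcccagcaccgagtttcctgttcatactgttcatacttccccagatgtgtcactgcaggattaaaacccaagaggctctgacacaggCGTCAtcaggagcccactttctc
Il1rl1: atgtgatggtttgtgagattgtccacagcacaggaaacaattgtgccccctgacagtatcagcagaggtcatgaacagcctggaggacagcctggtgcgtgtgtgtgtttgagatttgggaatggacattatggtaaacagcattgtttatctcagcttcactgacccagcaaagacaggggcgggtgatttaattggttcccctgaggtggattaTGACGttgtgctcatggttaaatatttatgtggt
A match is a description of the letters in the window and shows no binding.

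Reads of all 6 receptor genes were present in WT 1 and in WT 2, and their levels spanned a wide range. On the scale of normalized reads (reads divided by the size factor) per kb of exon, Il1r1 and Il18rap were the highest and Il1rl1 was the lowest. Il1r1 and Il18rap together held 75.2% of the 1648 receptor reads of WT 1 and 73.0% of the 1243 receptor reads of WT 2. Intervals below are exact 95% Poisson intervals and cover counting error only.

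Il1r1 had 653 reads in WT 1 and 547 in WT 2. Per kb of exon these were 4.72 (4.37 to 5.10) and 5.01 (4.60 to 5.45) normalized reads. The libraries differed by less than their counting error, and the signalling interleukin 1 receptor was the most abundant transcript of the cluster per length. Il18rap, the accessory chain of the interleukin 18 receptor, had 586 and 360 reads. That gave 3.995 (3.68 to 4.33) and 3.11 (2.80 to 3.45) normalized reads per kb. WT 1 was the higher library by 0.36 on the log2 scale of normalized reads, and both libraries lay below both Il1r1 values.

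Il1rl2, the interleukin 36 receptor, had 226 and 201 reads, or 1.53 (1.33 to 1.74) and 1.72 (1.49 to 1.97) normalized reads per kb. Its libraries were close, and both lay above every value of the 3 genes below it. Il18r1, which binds interleukin 18, had 124 and 73 reads, or 1.19 (0.986 to 1.41) and 0.883 (0.692 to 1.11) normalized reads per kb. The accessory chain Il18rap thus had a higher level per length than its binding chain in both libraries. The decoy Il1r2 had 18 and 33 reads, or 0.434 (0.257 to 0.686) and 1.01 (0.694 to 1.42) normalized reads per kb. Its WT range overlapped that of Il18r1, so the order of these neighbours is not settled by the libraries. Il1rl1, the interleukin 33 receptor, had 41 and 29 reads, or 0.274 (0.196 to 0.371) and 0.245 (0.164 to 0.352) normalized reads per kb, below every other receptor gene. The plot of WT levels per kb shows this order. The library values of the other neighbours did not overlap, but counting intervals did between Il1rl2 and Il18r1 in WT 1 and between Il1r2 in WT 1 and Il1rl1.

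**Figure D1:**
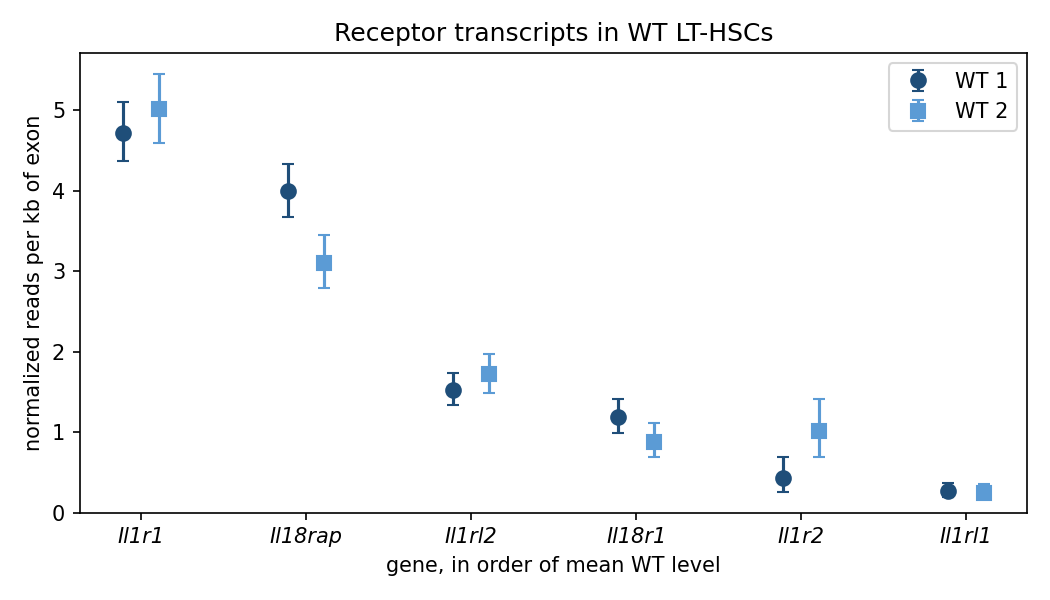
Normalized reads per kb of exon of the 6 receptor genes in the WT libraries (vertical axis, linear from 0), in order of mean level, with points for the libraries and bars for exact 95% Poisson intervals. Il1r1 lies highest at 4.72 and 5.01 and Il1rl1 lowest at 0.274 and 0.245, and among neighbours in the order only the points of Il18r1 and Il1r2 overlap, while bars also overlap between Il1rl2 and Il18r1 and between Il1r2 and Il1rl1.

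Set among 1064 protein-coding genes with WT reads in the analysed table, Il1r1 stood at percentile 65.7 of normalized reads per kb and Il18rap at 60.8. Il1rl2 was near the middle at 49.2, Il18r1 at 42.6 and Il1r2 at 37.97, and Il1rl1 at 27.1. The decoy receptor was therefore below the signalling receptor Il1r1 in rank as well as in level, with means of 0.721 and 4.87 normalized reads per kb. On the deposited log2 scale per kb the order was the same, at 2.10 for Il1r1, 1.63 for Il18rap, 0.50 for Il1rl2, 0.20 for Il18r1, -0.01 for Il1r2 and -1.12 for Il1rl1.

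The spread between the WT libraries differed among the genes. The log2 ratio of WT 1 to WT 2 in normalized reads was -0.09 for Il1r1, -0.17 for Il1rl2 and 0.16 for Il1rl1, and 0.42 for Il18r1. Il1r2 stood at -1.22. The counting intervals of the libraries did not overlap for Il1r2, nor for Il18rap at 0.36. Over 771 genes with more than 100 WT reads the SD of this log2 ratio was 0.36, and the range from the lowest to the highest 10% ran from -0.37 to 0.42. Il1r2, with fewer WT reads than those genes, was the one receptor gene well outside that range, and the chains of the interleukin 18 receptor were both higher in WT 1.

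Sorted marrow cells can include other cells that carry these receptors, and markers of such cells were read from the same libraries. Of 5 genes listed for mast cells, basophils and type 2 innate lymphoid cells, which carry ST2, Fcer1a and Gata3 were in the table, with summed normalized reads of 57.9 in WT 1, 41.7 in WT 2 and 0 in both ATF4 KO libraries. For neutrophils and monocytes, which carry the decoy Il1r2, 7 of 11 listed genes were in the table, with sums of 57.7 and 77.3 in WT and 55.6 and 0 in ATF4 KO. For T and NK cells, which carry the interleukin 18 receptor, 10 of 12 were in the table and all 10 had a read in both WT libraries, with sums of 342 and 358 in WT and 417 and 2960 in ATF4 KO. B cell genes were near 0, with sums of 3.36 and 1.52 in WT over 3 genes and none in ATF4 KO. Endothelial genes (3 of 5 in the table) summed to 169 and 167 in WT, with 83.4 in ATF4 KO 1 and 0 in ATF4 KO 2. Some of these genes, such as Gata3, are also expressed by stem and progenitor cells, and the part of such cells in the receptor levels was not tested. Of 12 LT-HSC genes 5 were in the table, among them Slamf1, the surface receptor CD150 commonly used to sort LT-HSCs, with 362 and 186 reads in WT and 0 in both ATF4 KO libraries, where 1.01 were expected by size factors. Cd48, whose protein LT-HSCs usually lack at the surface, had 1983 and 2511 reads in WT and 2 in each ATF4 KO library (8.69 expected). Gfi1b, a regulator of stem cell dormancy, had 1579 and 1225 WT reads and 0 in both ATF4 KO libraries (5.27 expected). Cavin2 had 571 and 765 WT reads and 0 in both ATF4 KO libraries (2.59 expected). The reads of Cd34 could not be recovered. Its deposited log2 values were 9.44 and 9.50 in WT and 8.30 and 8.17 in ATF4 KO.

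In ATF4 KO the 6 genes together had 2 reads. Il18r1 and Il1r2 had 1 read each, both in ATF4 KO 2, and Il1r1, Il18rap, Il1rl2 and Il1rl1 had 0 in both libraries. Neither ATF4 KO library held a read of 75.1% of all recovered genes, beside 4 of the 6 receptor genes. From the WT levels and the size factors, 5.42 reads were expected over the 6 genes, and the exact 95% Poisson interval of the 2 reads was 0.242 to 7.22. Scaling by total reads predicted 64.7. For genes of like WT level (within 2-fold), the share without an ATF4 KO read was turned into a Poisson mean. These means summed to 2.15 over the 6 genes, and they reflect detection and not the number of reads. By counting error alone, the summed receptor reads in ATF4 KO thus were below the number expected under total scaling only. Under size factors the difference was not detectable at this depth.

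In the deposited log2 values, limma with Benjamini-Hochberg adjustment over 1199 tested genes placed Il1r1, Il18rap and Il1rl2 lower in ATF4 KO and Il1rl1 higher, and 2 genes did not pass. Among all tested genes 22.4% were placed lower and 24.6% higher. For these 4 genes the ATF4 KO values were set by the transform, since no read lies behind them. The transform drew values of 0 reads towards 2.36 in ATF4 KO 1 and 2.31 in ATF4 KO 2 before the pull of the gene's own WT level, so that genes well above that level in WT come out lower and genes below it come out higher. Of 676 tested genes with recovered reads and 0 in both ATF4 KO libraries, 539 passed the threshold, against 23 of 457 with an ATF4 KO read. The median difference was -0.27 over the 6 genes and 0.02 over all tested genes. The values of the 2 groups did not overlap for 5 of the 6 genes, and for 81.2% of all tested genes.

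**Figure D2:**
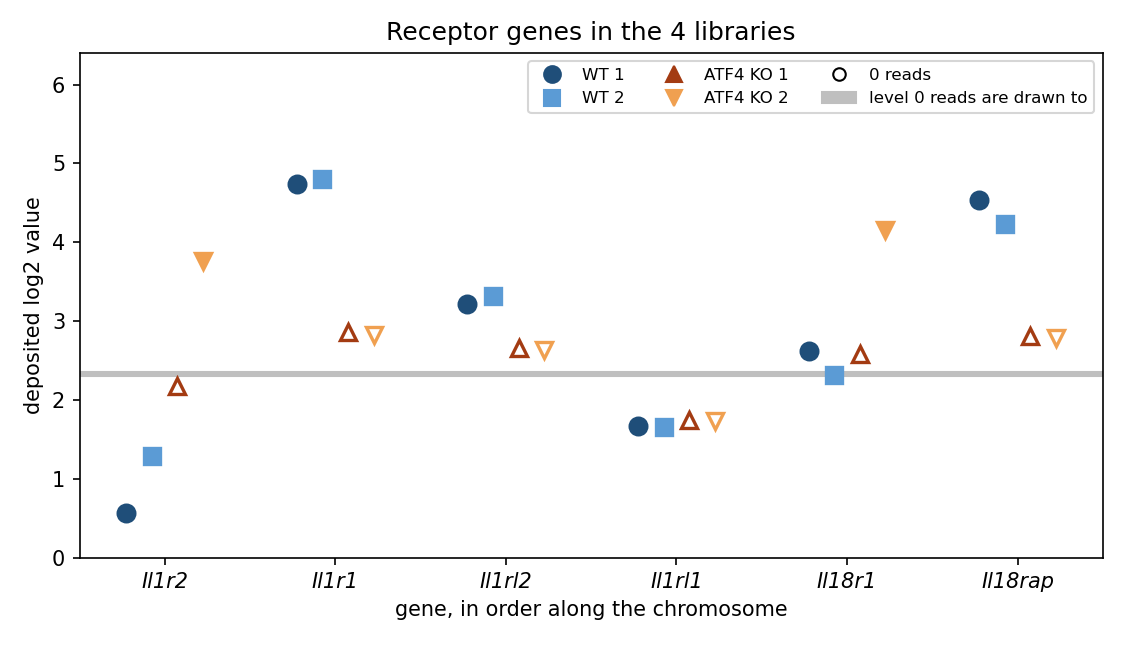
Deposited log2 values of the 6 receptor genes in the WT and ATF4 KO libraries, with a point for each library, open where no read lies behind it and filled where at least 1 read does, and a line at the level towards which 0 reads are drawn. Il1r1 and Il18rap lie above the line in WT, Il1rl1 lies below it, and the values with 0 ATF4 KO reads lie between the WT values and the line or close to it.

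Il1r1 had deposited log2 values of 4.74 in WT 1, 4.81 in WT 2, 2.86 in ATF4 KO 1 and 2.83 in ATF4 KO 2. Both ATF4 KO values lay below both WT values and nearly coincided. The fitted difference, ATF4 KO minus WT, was -1.93 ± 0.09 (SE, limma, n = 2 per group, adjusted p = 0.00226). Behind it stood 653, 547, 0 and 0 reads. Under the size factors 2.26 ATF4 KO reads were expected, fewer than the 3 taken as the limit for 0 reads over the pair. No fold bound on a decrease can be given there. Under total scaling 27.0 were expected. With counting error alone, the level would be at least 9.003-fold lower at the limit of 3 reads. The exact two-sided 95% Poisson interval of 0 reads ends at 3.69 reads. There the ratio to the expected number would be at most 0.137 under total scaling and 1.63 under the size factors. Detection in genes of like WT level fell short of counting error even at the size factors. Of these genes 50.3% had an ATF4 KO read, where counting error would give 87.3%. The fold bound thus rests on an assumption that these libraries did not meet. On the recovered reads limma's voom gave -1.18 with an adjusted p of 0.0421. Voom adds a constant to every count before scaling, and with 0 ATF4 KO reads that constant sets the ATF4 KO value. The voom call is therefore not a separate test of the level. Of 296 genes of like WT level 49.7% had no ATF4 KO read either.

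Il18rap had values of 4.53, 4.24, 2.81 and 2.78 in the same order of libraries, with 586, 360, 0 and 0 reads. Again both ATF4 KO values lay below the WT values, by -1.59 ± 0.14 (SE, limma, adjusted p = 0.00515). On the recovered reads limma's voom gave -0.79 with an adjusted p of 0.106, so the call was lost there. With 0 ATF4 KO reads this value too rests on the constant that voom adds, so the loss does not test the level. At the size factors 1.75 reads were expected and no bound on a decrease follows (a ratio of at most 2.10 at 3.69 reads). By total reads 20.95 were expected. With counting error alone, the level would be at least 6.98-fold lower at the limit of 3 reads (a ratio of at most 0.176 at 3.69 reads). Of 304 genes of like level 55.3% had no ATF4 KO read. Counting error at the size factors would give 81.9% with a read, so that condition was not met here either.

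Il1rl2 had values of 3.21, 3.32, 2.66 and 2.63, with 226, 201, 0 and 0 reads. The groups did not overlap, and the difference was -0.62 ± 0.06 (SE, limma, adjusted p = 0.00589). Its direction turned with voom on the recovered reads, to 0.30 with an adjusted p of 0.293. With 0 ATF4 KO reads this value again rests on the constant that voom adds, so the turn does not test the level. Expected ATF4 KO reads were 0.809 by size factors and 9.64 by total reads. With counting error alone, the latter would mean a level at least 3.21-fold lower at the limit of 3 reads (a ratio of at most 0.383 at 3.69 reads). Of genes of like level 27.1% had an ATF4 KO read, where counting error at the size factors would give 56.9%. The interleukin 36 receptor was thus called lower on the deposited values alone, and 72.9% of 247 genes of like level had no ATF4 KO read.

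Il1rl1 had values of 1.67, 1.66, 1.74 and 1.74, with 41, 29, 0 and 0 reads. The ATF4 KO values lay above the WT values by 0.08 ± 0.00409 (SE, limma, adjusted p = 0.00247), although no ATF4 KO read lay behind them. Without a trend in the prior variance the adjusted p was 0.0544. On the recovered reads voom, which adds 0.5 to every count before scaling, gave 2.93 with an adjusted p of 0.0220, again higher with 0 ATF4 KO reads. Expected ATF4 KO reads were 0.131 by size factors and 1.56 by total reads, under the limit for 0 reads in both cases. By counting error alone the ratio to the expected number would be at most 28.2 by size factors and 2.36 by total reads. A decrease of the interleukin 33 receptor was thus not detectable at this depth, and an increase was bounded only by these ratios.

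Il18r1 had values of 2.62, 2.31, 2.58 and 4.16, with 124, 73, 0 and 1 reads. ATF4 KO 1 lay between the WT values and ATF4 KO 2 above them, so this was the one receptor gene whose groups overlapped. The difference was 0.90 ± 0.67 (SE, limma, adjusted p = 0.357). It was 1.69 with an adjusted p of 0.0085 without ATF4 KO 1, which leaves 1 library that holds the single read, and 2.29 with an adjusted p of 0.0989 with voom. That read stood against 0.364 expected by size factors, a ratio of 2.75 (exact 95% Poisson interval 0.0695 to 15.3), and against 4.35 expected by total reads, a ratio of 0.230 (0.00581 to 1.28). The direction thus turned with the scaling, and both intervals include 1.

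Il1r2 had values of 0.56, 1.28, 2.18 and 3.77, with 18, 33, 0 and 1 reads. Both ATF4 KO values lay above both WT values, and ATF4 KO 1 did so with 0 reads. The difference of 2.047 ± 0.81 did not pass (SE, limma, adjusted p = 0.177), nor did that of 4.07 with voom (adjusted p = 0.118). The single read stood against 0.101 expected by size factors, a ratio of 9.94 (0.252 to 55.4), and against 1.19 by total reads, a ratio of 0.837 (0.0212 to 4.66). A higher level of the decoy receptor in ATF4 KO therefore rests on 1 read, and its direction turned with the scaling. Of 224 genes of like WT level 12.9% had an ATF4 KO read.

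Over all recovered genes, the share with an ATF4 KO read was 9.52% from 0.5 to 1 normalized WT reads and 97.7% from 128 to 256, and the receptor genes lay below 32. Of genes with 16 to 32 normalized WT reads, the range of Il1r1 and Il18rap, 39.6% had an ATF4 KO read, where counting error alone at the size factors would give 80.9%. From 32 to 64 normalized WT reads the shares were 61.5% and 95.3%. The share of genes with a read around the level of Il1r1 and Il18rap was thus below the share that the size factors imply. It says nothing of the number of reads, since 16 of the 296 genes of like level to Il1r1 had more than 100 ATF4 KO reads each. The plot of detection by WT level gives all ranges.

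**Figure D3:**
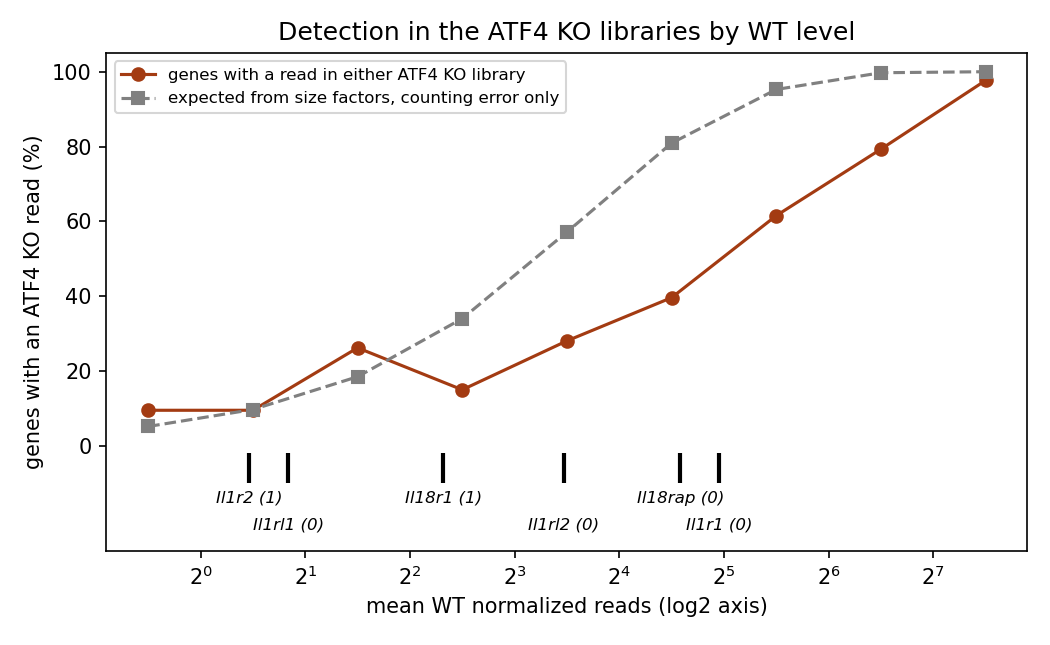
Percent of recovered genes with at least 1 ATF4 KO read (vertical axis) in ranges of mean WT normalized reads (horizontal log axis), observed and as counting error at the size factors would give, with the receptor genes marked at their WT levels and their ATF4 KO reads in parentheses. The observed share is 39.6% from 16 to 32 normalized WT reads, where 80.9% would follow from counting error.

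The genes whose 4 deposited values were most like those of a receptor gene were found among 909 tested genes, by the mean absolute log2 difference over the 4 libraries. Nearest to Il1r1 were Dph7 (0.0152), Tmem185b and Stam, and nearest to Il18rap were D2hgdh (0.0113), Tbc1d8 and Eya1. All of these had 0 reads in both ATF4 KO libraries, for instance 643, 565, 0 and 0 in Dph7. Il1rl2 was nearest to Tomm40l, Cul3 and Bivm, and Il1rl1 to Igsf9, Cnot11 and Mrc1, which had 0 ATF4 KO reads too. Il18r1 was nearest to Ifi213, Efcab2 and Arl8a, and Il1r2 to G0s2, Slc9a2 and Dnajb3, each with 1 read in ATF4 KO 2. These genes were chosen for like values, from which the reads were recovered, so their like reads are part of the choice.

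Around the cluster, from 1 Mb before Il1r2 to 1 Mb after Il18rap, lay 13 other protein-coding genes. Of these 10 had a recovered WT read and 2 were at 0 in all libraries. Per kb of exon Tbc1d8, a GTPase-activating protein, had 4.48 normalized reads in WT, between Il1r1 and Il18rap, and the kinase gene Map4k4 had 1.36. Il1rl2, Il1rl1 and Il18r1, which lie between Il1r1 and Il18rap, and Map4k4 and Slc9a2, on either side of the cluster, all had lower mean WT levels per kb than Il1r1 and Il18rap. Over the 37 other annotated genes of the window, protein-coding or not, 10 were tested, of which 1 (Tbc1d8) was placed lower, 4 higher and 5 did not pass, beside 22.4% lower and 24.6% higher over all tested genes. The reads of Rpl31 could not be recovered, and ATF4 KO reads were recovered in 3 genes, Rnf149 (49, 54, 1385 and 0 reads), Map4k4 (330, 186, 2 and 0) and Slc9a2 (49, 26, 0 and 1). The ubiquitin ligase gene Rnf149 had 1385 reads in ATF4 KO 1 and 0 in ATF4 KO 2, which shows how far these libraries differed from each other within the window.

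**Figure D4:**
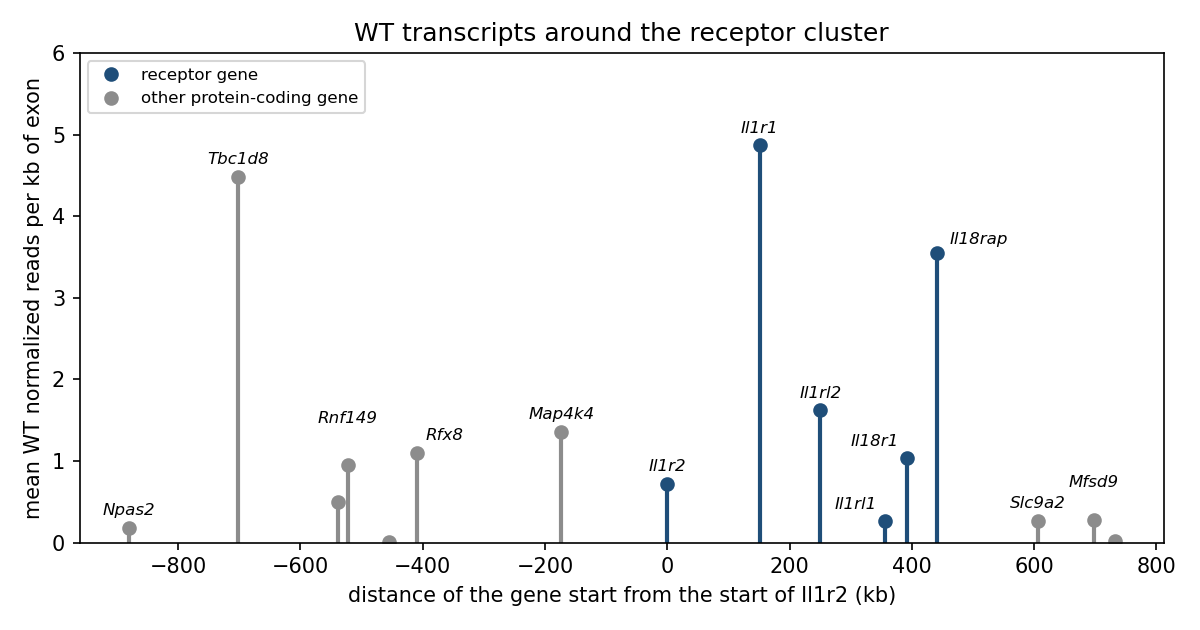
Mean WT normalized reads per kb of exon (vertical axis) of protein-coding genes with recovered reads, by distance of the gene start from that of Il1r2 in kb (horizontal axis), with receptor genes in blue and other genes in grey. Il1r1 (4.87), Tbc1d8 (4.48) and Il18rap (3.55) stand above the other genes shown. Rpl31, whose reads could not be recovered, is not shown, and its deposited WT log2 values were 9.40 and 9.45.

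Of 57 listed genes of the interleukin 1 pathway (ligands, adaptors, kinases and targets) 12 were in the table, and 7 were tested. Of these 2 were placed lower, 1 higher and 4 did not pass, beside 22.4% lower and 24.6% higher over all tested genes. The median difference was 0.07, beside 0.02 over all tested genes. Among the ligands, Il1f5, Il1f6, Il1f8 and Il1f10 were listed at 0 in all libraries. Il1f9, which encodes the interleukin 36 gamma that binds the Il1rl2 product, had 19, 3, 0 and 0 reads, and its difference of 0.02 was placed higher with an adjusted p of 0.00653 (limma) and no ATF4 KO read behind it. Il1rn, the receptor antagonist that blocks Il1r1, had 8 and 3 reads in WT and 0 and 15 in ATF4 KO. The 15 reads of Il1rn were all in ATF4 KO 2, and the difference of 6.48 ± 2.83 did not pass (SE, limma, adjusted p = 0.212).

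Downstream of the receptors, Traf5, an adaptor of TNF receptor signalling, had 233, 156, 0 and 0 reads and was placed lower by -0.50 ± 0.07 (SE, limma, adjusted p = 0.0137). Pla2g4a, the phospholipase that releases arachidonic acid, had 2410, 1760, 1 and 1 reads and was placed lower by -1.66 ± 0.33 (SE, limma, adjusted p = 0.0368), with 7.81 ATF4 KO reads expected by size factors. It was the one pathway gene placed lower with a read in both ATF4 KO libraries. Traf2, another adaptor, had 1702, 1313, 655 and 0 reads, so the ATF4 KO libraries lay on both sides of WT. Ikbke, an NF-kB kinase, had 552, 389, 0 and 5 reads, and Mapkapk2, a kinase below p38, had 168, 294, 1 and 0. None of these 3 passed, with limma adjusted p-values of 0.490, 0.859 and 0.940. Ptgs2, the inducible cyclooxygenase that interleukin 1 induces in many cells, had 9, 5, 0 and 0 reads and was not tested.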

How the data were processed

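Sorted LT-HSC RNA was measured in 2 WT and 2 ATF4 KO libraries, grouped by the labels. HISAT2 2.2.1, featureCounts, DESeq2 and GRCm38 are named, without role or order, in the submitters' processing notes. The authors deposited 1 log2 value per gene and library; the transform is not given in the sources used here. Of 4168 lines, 4167 were complete and analysed.

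Whole reads were recovered by inverting a regularized logarithm (ridge weight 0.1645, fitted reads held at 0.5 or more), with 1 free dispersion per gene. Parameters came from 52 genes. A gene was accepted only with a residual under 1e-08 in all 4 values, and 66 genes were not. The recovery was tested on simulated data. The size factors were 21.7, 17.2, 0.0360 and 0.0372.

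limma 3.58.1 (R 4.3.3; trend, robust, statmod 1.5.0) was fitted to the deposited log2 values of 1199 genes with at least 1 in at least 2 libraries, with Benjamini-Hochberg adjustment and a threshold of 0.05. An exact permutation of 2 against 2 cannot go below p = 0.333. Expected ATF4 KO reads are mean WT normalized reads times the summed ATF4 KO size factors (0.0731). Exonic lengths are from GENCODE M21 and promoters from RefSeq. The named genes were the 6 receptor genes, the pathway and marker genes in the table, and the 3 genes with the most similar values; Ptgs2 and the genes around the cluster were named after their values were seen. Members and lists were chosen with earlier results of these data known. Alternatives were other filters, no trend, each library left out, a replicate block, voom, other lengths and other scalings.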

Additional observations from a re-analysis of the deposited data

How the results depend on the processing

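The numbers of genes placed lower (268) and higher (295) in ATF4 KO depended on the settings. Leaving out 1 library gave 302 to 451 lower genes and 332 to 441 higher genes, and voom on recovered reads gave 88 lower. The higher genes became 1037 without a filter, 15 with a lowest value of 3 and 28 without a trend in the prior variance. Of the receptor genes, 3 were lower and 1 higher. Voom left 1 lower, a lowest value of 3 or no trend left 0 higher, and leaving out each library gave 3 lower and 1 to 2 higher. For receptor genes without ATF4 KO reads, the ATF4 KO values of voom rest on the constant it adds to every count. With voom Il1rl2 reversed to 0.30. The 6 receptor differences had 47 alternative values on the same side, 2 that lost the call, 1 that gained it and this 1 reversal. With the replicate number as a block, 233 genes were lower and 277 higher, with 3 and 1 receptor genes. The deviations of same-numbered libraries had a correlation of -0.076 over the tested genes. It cannot settle whether these libraries were paired, since ATF4 KO values without reads are set by the transform. The labels used here give them only a shared number.

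WT log2 levels per kb with the longest transcript became 2.23 (Il1r1), 1.30 (Il1rl2), -0.74 (Il1rl1) and 2.09 (Il18rap). With this length Il1r2 (0.419) stood just above Il18r1 (0.411), so the order of these neighbours turned. As log2 normalized reads per kb, an alternative chosen after seeing the data, the WT levels were 2.28 (Il1r1), 0.70 (Il1rl2) and -1.95 (Il1rl1). The Poisson means from the share of genes of like level without an ATF4 KO read reflect detection and not read numbers. They were 0.700 (Il1r1), 0.316 (Il1rl2), 0.181 (Il1rl1), 0.224 (Il18r1) and 0.593 (Il18rap). Expected ATF4 KO reads by total reads, also chosen after seeing the data, were 1.19 (Il1r2), 27.0 (Il1r1), 9.64 (Il1rl2), 1.56 (Il1rl1), 4.35 (Il18r1) and 20.95 (Il18rap). The cause of these shifts was not tested. Depth limits every ATF4 KO level: with at most 1 read per receptor gene, decreases can be bounded only under total scaling. Such bounds assume counting error alone, and detection in genes of like level to Il1r1, Il18rap and Il1rl2 fell short of it.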
